A study of Culter alburnus with 9 samples.

Results

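Trunk muscle from 3 homozygous runx2b mutants (Ho) was compared with the same tissue from 3 wild-type fish (Ctrl) of the topmouth culter, Culter alburnus, over every gene and annotated pathway that could be tested. The comparison takes 6 of the 9 RNA-seq libraries of the series, and the other 3, from heterozygous fish (He), entered the filter, the scaling, the estimate of the spread and 1 comparison of calls. It covers 14755 loci with enough counts, out of 29791 in the deposited table. Ho fish carry runx2b mutations made with CRISPR/Cas9 on both alleles and Ctrl fish carry none. All were F1 fish aged 2 months, kept under the same rearing conditions, from crosses of edited founders that share 1 mutation type, so Ctrl fish too are progeny of edited founders. No treatment was given. The fish were picked by genotype and skeletal staining, at similar body size. Each library came from 1 fish, and the myoseptal region was dissected with the muscle around it, so myosepta were enriched and not purified.

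Runx2 is a transcription factor of the Runt family that commits mesenchymal cells to the osteoblast lineage, and fish have a pair of copies of it, runx2a and runx2b. Myosepta are sheets of connective tissue between the muscle segments. In carp-like fishes, small intermuscular bones ossify inside them, within tendon-like tissue and without a cartilage stage. Most RNA of such a dissection comes from fast muscle fibres, with smaller shares from slow fibres, fibroblasts, bone cells, vessels, blood, nerve and skin.

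Library totals were 15869087 to 18831742 counts in Ho and 15952748 to 17393921 in Ctrl, and 94.3% of all counts were whole numbers. The 10 most abundant genes took 44.1% to 48.3% of the counts in Ho and 40.1% to 51.0% in Ctrl. Ctrl 1 and Ctrl 2 stood apart from Ctrl 3 in this share (40.4% and 40.1%, against 51.0%) and in the scaling factor that edgeR's TMM method gave them (1.3 and 1.4, against 0.836). Ho factors were 0.907 to 1.1. CPM below are counts relative to library size, scaled by TMM. Taken over all tested genes as a root mean square, the distance in log2 CPM averaged 0.94 between Ho and Ctrl fish, 0.882 among Ho fish and 0.887 among Ctrl fish. Fast muscle markers fit the label of the tissue. Skeletal actin acta1 had 1147165 to 1371350 counts in Ho and 982546 to 1181355 in Ctrl. The tendon gene tnmd had 536 to 1594 counts in Ho and 602 to 1691 in Ctrl, whereas sp7, which marks committed osteoblasts, had 4 to 11 counts in Ho and 4 to 32 in Ctrl.

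The edited gene runx2b (ABG768_014534, chromosome 20, 33043703 to 33074321 of assembly ASM4018292v1) had 11, 5 and 2 counts in the 3 Ho fish, against 11, 27 and 0 in the 3 Ctrl fish. The groups overlapped throughout. Its log2 fold change was -0.77 (standard error 1.08, edgeR adjusted p = 0.941), and it was 0.35 without Ctrl 2. At this depth a difference in runx2b was not detectable, and its counts do not check the genotype labels, because a transcript that carries a small edit is still counted.

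No gene passed the quasi-likelihood test of edgeR after adjustment over all 14755 genes. Differentially expressed genes (DEGs) had to reach an adjusted p under 0.01 with a change of 1 or more on the log2 scale. There were 0 of them (0.0%), and the smallest adjusted p was 0.640. At an unadjusted p under 0.05 there were 529 genes higher in Ho (3.59% of those tested) and 430 lower (2.91%), 959 in all (6.5%). In 1658 genes (11.2%) the 3 Ho fish did not overlap the 3 Ctrl fish in CPM, with 873 above (5.92%) and 785 below (5.32%). These shares are the background for every list below. DESeq2, run on the same counts, called 21 DEGs (0.142%), 17 higher (0.115%) and 4 lower (0.0271%) in Ho. At an adjusted p under 0.05 DESeq2 called 63 genes (0.427%), 49 higher (0.332%) and 14 lower (0.0949%). limma on the deposited TPM called 0 genes (smallest adjusted p 0.21), with 1126 at an unadjusted p under 0.05. Of the 21 DESeq2 DEGs, 10 carry a symbol, 1 a product name only (a class I histocompatibility antigen), 3 match the endosome protein sorting nexin-25 by sequence, and 7 have no name. Loci assembled from the reads made up 10 of the 21, and 824 of the 14755 genes tested. Of the 21 DEGs, 4 were called whichever of the 6 fish was left out (Gimap9, Myh4 and 2 with no name). The split between higher and lower genes turned on the scaling. Higher genes made up 55.2% of those at an unadjusted p under 0.05 with TMM, 27.9% with library totals and 17.3% with limma on TPM. Library totals moved the median log2 fold change of all genes to -0.24, against -0.01 with TMM, so differences are best read relative to that median.

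Genes that DESeq2 called higher in Ho included the signalling regulators RGS4, DUSP5 and Nr4a2. RGS4 (ABG768_001838, chromosome 10, 12737825 to 12741113), which shuts off signalling from G-protein-coupled receptors, is named by its Swiss-Prot hit. The closest fish protein of the locus is regulator of G-protein signaling 5. It stood at 6.33, 10.6 and 2.96 CPM in Ho, against 1.16, 0.717 and 1.71 in Ctrl. All Ho fish lay above all Ctrl fish, with Ho 3 lowest of the Ho fish. Its log2 fold change was 2.49 (standard error 0.54, edgeR adjusted p = 0.64), and DESeq2 gave an adjusted p of 0.00867. The sum of the 3 RGS4 loci was 17.9, 27.4 and 8.06 CPM in Ho, against 8.65, 8.78 and 8.22 in Ctrl, where Ho 3 lay below all Ctrl fish (DESeq2 adjusted p = 0.536). DUSP5 (ABG768_002128, chromosome 10, 22383947 to 22389124), a phosphatase that removes activating phosphates from ERK kinases, was likewise lowest in Ho 3 among the Ho fish, without overlap. It had 7.89, 7.81 and 2.28 CPM in Ho, against 1.6, 1.17 and 1.19 in Ctrl (log2 fold change 2.18, standard error 0.48, DESeq2 adjusted p = 0.0176). The orphan nuclear receptor Nr4a2 (ABG768_023644, chromosome 6) stood at 18.2, 8.5 and 5.24 CPM in Ho and 2.04, 2.47 and 2.9 CPM in Ctrl. Its groups did not overlap, and DESeq2 called it higher at an adjusted p of 0.0267 (log2 fold change 2.12, standard error 0.51, edgeR adjusted p = 0.64).

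Further calls by DESeq2 were low in level but even among the fish. mpv17l, a channel-like protein of mitochondria and peroxisomes, had 2.04, 1.26 and 1.41 CPM in Ho and 0.178, 0.269 and 0.594 CPM in Ctrl (log2 fold change 2.24, standard error 0.47, DESeq2 adjusted p = 0.0201). An NLRC3 locus (ABG768_013788), of a large family of innate immune sensors, had 1.45, 2.36 and 1.48 CPM in Ho, against 0.311, 0.448 and 0.446 in Ctrl (DESeq2 adjusted p = 0.0336). Both lacked overlap. Another locus of that symbol, MSTRG.11895, was called lower (DESeq2 adjusted p = 0.0328, and 0.572 without Ctrl 2). It had 0.751, 0.977 and 0.269 CPM in Ho, against 6.89, 8.2 and 0.817 in Ctrl, with overlap. Over the 108 loci with the NLRC3 symbol the log2 fold change of the sum was 0.00. That sum averaged 198 CPM in each group, so it cannot show whether other loci as low as these went with either call. Of the 70 tested, 5 lay above Ctrl without overlap and 3 below, where the background is 5.92% and 5.32%.

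Prostacyclin synthase ptgis (ABG768_024354, chromosome 6, 31453246 to 31465109), which makes the vessel-widening lipid prostacyclin, had 4.24, 5.63 and 3.09 CPM in Ho, against 0.356, 0.134 and 1.26 in Ctrl. Every Ho fish exceeded every Ctrl fish, and the log2 fold change was 2.98 (standard error 0.67, edgeR adjusted p = 0.64, DESeq2 adjusted p = 0.00754). IGFBP1 (ABG768_013873, chromosome 20, 5113713 to 5117519), a secreted protein that binds insulin-like growth factors, stood at 35.1, 21.1 and 5.51 CPM in Ho and 3.16, 1.08 and 4.68 CPM in Ctrl. Ho 3 was only just above Ctrl 3, and DESeq2 called the gene higher at an adjusted p of 0.0441 (log2 fold change 2.81, standard error 0.85). Bcl2l14, a member of the BCL-2 family of apoptosis regulators, had 7.08, 21.3 and 1.75 CPM in Ho, against 0.622, 0.314 and 1.26 in Ctrl (DESeq2 adjusted p = 0.0024). Its Ho values spread widely, and without 1 fish its log2 fold change ran from 2.65 to 4.40. CHKA, the kinase that starts phosphatidylcholine synthesis, was steadier, at 9.71, 11 and 8.13 CPM in Ho and 3.24, 4.08 and 5.87 CPM in Ctrl (log2 fold change 1.14, standard error 0.25, DESeq2 adjusted p = 0.0354). The 9 calls of higher genes from RGS4 to CHKA were each lost when some 1 fish was left out, with a highest DESeq2 adjusted p of 0.182 (ptgis) to 0.502 (IGFBP1). Gimap9, a GTPase of lymphocytes, had 5.95, 14.3 and 6.92 CPM at its main locus in Ho, against 0.756, 1.84 and 1.78 in Ctrl. Without any 1 of the 6 fish its DESeq2 adjusted p stayed at 0.00534 or less. Over the 44 loci that carry the Gimap9 symbol the sum was 8.44, 20.1 and 9.81 CPM in Ho, against 4.83, 6.93 and 3.33 in Ctrl, and DESeq2 did not call it (adjusted p = 0.118).

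**Figure D1:**
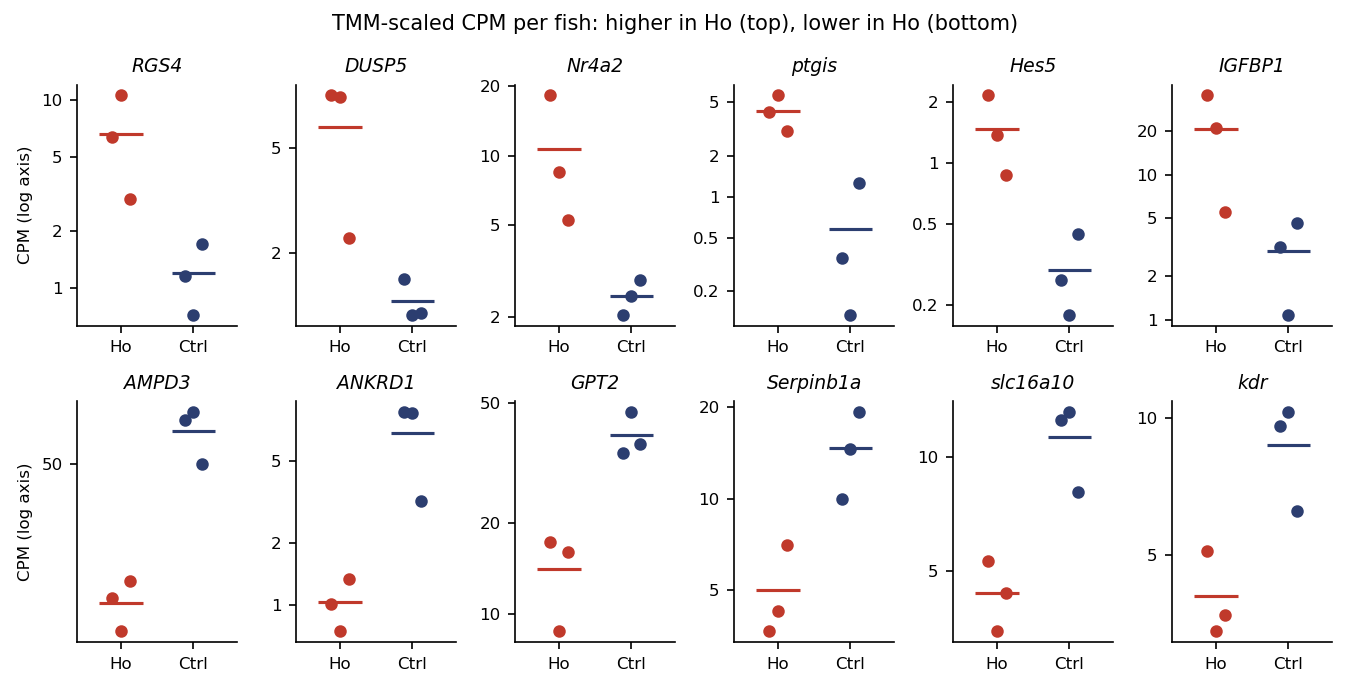
TMM-scaled CPM of 12 genes on log axes, with 1 point per fish and a line at the group mean, Ho on the left and Ctrl on the right of each panel. In all 12 panels the 3 Ho fish lie on one side of the 3 Ctrl fish, above them in the top row (RGS4 to IGFBP1) and below them in the bottom row (AMPD3 to kdr), and only some of these genes passed DESeq2. The genes were picked by hand under a naming rule that favours genes without overlap, so the separation is not a separate result.

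Of the 4 genes that DESeq2 called lower by the DEG criteria, 3 carry a symbol, and they work in purine metabolism, the sarcomere and amino acid metabolism. AMPD3 (assembled locus MSTRG.12754), an AMP deaminase that turns AMP into IMP in the purine nucleotide cycle, stood at 25.1, 21.2 and 27.4 CPM in Ho, against 62.5, 65.1 and 49.8 in Ctrl. The groups were far apart and the values within each were close (log2 fold change -1.27, standard error 0.22, edgeR adjusted p = 0.64, DESeq2 adjusted p = 3.11e-05). Another locus with the symbol, on chromosome 7 (ABG768_025911), gave 7.4, 5.34 and 6.18 CPM in Ho and 19.5, 12.9 and 5.35 CPM in Ctrl, and here Ctrl 3 lay within the range of the Ho fish. The locus on chromosome 18 (ABG768_010983) leaned the other way, with overlap. It had 12.4, 8.21 and 13 CPM in Ho, against 9.16, 0 and 8.1 in Ctrl (log2 fold change 0.97, standard error 1.07). Summed over the 3 AMPD3 loci, the values were 45, 34.8 and 46.6 CPM in Ho, against 90.9, 78.4 and 63.1 in Ctrl, and DESeq2 gave an adjusted p of 0.0547. ANKRD1 (ABG768_009863, chromosome 17, 19347924 to 19355615), a sarcomere protein induced when muscle is stretched or injured, had 1.02, 0.747 and 1.34 CPM in Ho, against 8.67, 8.61 and 3.19 in Ctrl. It fell by DESeq2 (log2 fold change by edgeR -2.73, standard error 0.51, DESeq2 adjusted p = 0.00074). Set against the heterozygous fish, ANKRD1, RGS4 and Bcl2l14 were the only 3 of the 21 DEGs that also passed a DESeq2 adjusted p under 0.05, where 19 genes did in all.

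GPT2, the mitochondrial alanine aminotransferase that links pyruvate with glutamate, has a main locus on chromosome 7 (ABG768_025230, 23285851 to 23297280). It stood at 17.4, 8.79 and 16.1 CPM in Ho, against 34.1, 46.6 and 36.6 in Ctrl. The low value of Ho 2 has a counterpart at a second gpt2 locus on chromosome 2, which held 118 counts in Ho 2, 0 to 1 in the other Ho fish and none in Ctrl. Summed over both loci, GPT2 had 17.5, 15.6 and 16.1 CPM in Ho (16.4 ± 0.982, SD, n = 3) and 34.1, 46.8 and 36.5 CPM in Ctrl (39.1 ± 6.77, n = 3). The sum fell by DESeq2 at an adjusted p of 0.00183 (log2 fold change by edgeR -1.26, standard error 0.23, adjusted p = 0.591). Serpinb1a, an inhibitor of neutrophil proteases, fell by DESeq2 as well, with 3.65, 4.25 and 7.05 CPM in Ho and 10, 14.6 and 19.3 CPM in Ctrl (adjusted p = 0.0176). slc16a10, a transporter of aromatic amino acids, had 5.31, 3.45 and 4.37 CPM in Ho, against 12.6, 13.2 and 8.1 in Ctrl (DESeq2 adjusted p = 0.0441). kdr, a receptor for vascular endothelial growth factor, showed 5.1, 3.39 and 3.69 CPM in Ho and 9.6, 10.3 and 6.24 CPM in Ctrl without overlap, but it missed DESeq2's threshold (adjusted p = 0.0967). The DNA repair endonuclease subunit slx1a (log2 fold change -1.59, DESeq2 adjusted p = 0.045) and ier5l, related to the immediate early response gene IER5 (-1.16, DESeq2 adjusted p = 0.038), fell as well. PDE4DIP, the myomegalin of Golgi and centrosome, had no overlap and a log2 fold change of -1.33 (DESeq2 adjusted p = 0.0596), but over the 3 PDE4DIP loci the groups overlapped (-0.42). Of the calls named here, that of the AMPD3 locus MSTRG.12754 alone held at a DESeq2 adjusted p under 0.05 without any 1 fish. Its highest was 0.0137, against 0.0591 for ANKRD1 and 0.243 for GPT2 and Serpinb1a.

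Many called loci share their symbol with another locus, and reads of near-identical copies may be divided among them. Of the 42 loci with a symbol that DESeq2 called at an adjusted p under 0.05, 28 share it with another locus, as do 6638 of 13604 tested loci with a symbol. Counts were therefore also summed by symbol, a choice made after seeing the data, which gave 12005 entries. DESeq2 then called 15 DEGs and 58 entries at an adjusted p under 0.05. Of the 10 DEGs with a symbol, 9 share it, and 3 of these kept the call: Myh4, ANKRD1 and GPT2. For Myh4 and ANKRD1 summing could hardly change the call. The other ANKRD1 locus held 0 to 2 counts per Ho or Ctrl fish, and nearly all Myh4 counts lay at 1 locus. MYH1s, a fast skeletal myosin heavy chain, has loci of very unequal level. Its locus on chromosome 5 (ABG768_023108, 39015369 to 39026611) had 25711, 38030 and 11351 counts in Ho, against 796, 231 and 709 in Ctrl. DESeq2 called that locus higher at an adjusted p of 3.73e-07. Over all 15 loci with the symbol, however, the sum was 107680, 89193 and 170703 CPM in Ho, against 81092, 56665 and 192288 in Ctrl. These groups overlapped, and the log2 fold change of the sum was 0.16 (standard error 0.45, edgeR adjusted p = 0.976). The Myh4 locus MSTRG.3895, a further fast myosin, had 209.8, 149 and 34.4 CPM in Ho and 0, 0.0448 and 0 CPM in Ctrl. In He fish it ranged from 0.284 to 828 CPM, so it varied widely within 1 genotype. The Myh4 loci together had 211, 149.6 and 35.3 CPM in Ho, against 0.133, 0.09 and 0.148 in Ctrl (DESeq2 adjusted p = 8.17e-07). That sum leaves out the MYH1s loci, and whether reads were divided between the 2 symbols was not tested.

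At Hes5 the copies that could be tested went together. Hes5 is a repressor that Notch receptors switch on, and the symbol is carried by 16 loci, 5 of them in a row on chromosome 22 (22431304 to 22446558). The 3 that could be tested, all in that row, had log2 fold changes of 2.33, 1.95 and 2.33, each without overlap. Loci on chromosome 11 had at most 5 counts per Ho or Ctrl fish and did not separate the groups. The sum over all Hes5 loci was 8.87, 5.12 and 3.9 CPM in Ho, against 1.6, 1.22 and 1.04 in Ctrl. Its log2 fold change was 2.20 (standard error 0.34, edgeR adjusted p = 0.485), and DESeq2 called it at an adjusted p of 0.000186. The sum rests on 14 to 36 counts per Ctrl fish and was not refitted with 1 fish left out. Notch3, a Notch receptor of vessel walls, did not go with Hes5, at 9.01, 8.67 and 9.47 CPM in Ho and 17.2, 19.8 and 10.5 CPM in Ctrl (log2 fold change -0.81, DESeq2 adjusted p = 0.284). Over the 68 tested genes of the Notch signaling pathway the median was -0.03.

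A stretch of chromosome 10 (27979198 to 31166563) and one of chromosome 5 (28719554 to 31797909) hold 37 pairs of loci with the same symbol, 26 of them equal in length. In 13 of the 36 pairs with counts, both loci had the same count in all 9 libraries to the nearest whole number, among them that of the muscle transcription factor Srf. The gene gmppb, which makes the GDP-mannose needed to glycosylate dystroglycan, had 92, 100 and 25 counts on chromosome 10 in Ho, against 0, 0 and 0 in Ctrl. With 3 counts over the whole Ctrl group taken as the limit, that is at least 82.8-fold higher. DESeq2 called that locus at an adjusted p of 1.56e-06. The chromosome 5 locus had 0, 0 and 40 counts in Ho and 154, 154 and 54 in Ctrl. Together they had 92, 100 and 65 counts in Ho, against 154, 154 and 54 in Ctrl, and the log2 fold change of the sum was -0.24 (standard error 0.26, edgeR adjusted p = 0.915). PHAX, an adaptor for export of small nuclear RNA, likewise had 31, 0 and 23 counts on chromosome 10 in Ho and none in Ctrl. Its chromosome 5 locus had 50, 72 and 44 counts in Ho and 98, 109 and 63 in Ctrl, so the pair came to 81, 72 and 67 counts in Ho, against 98, 109 and 63 in Ctrl. The call at gmppb was thus lost in the pair, and differences at single loci of such pairs are uncertain.

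**Figure D2:**
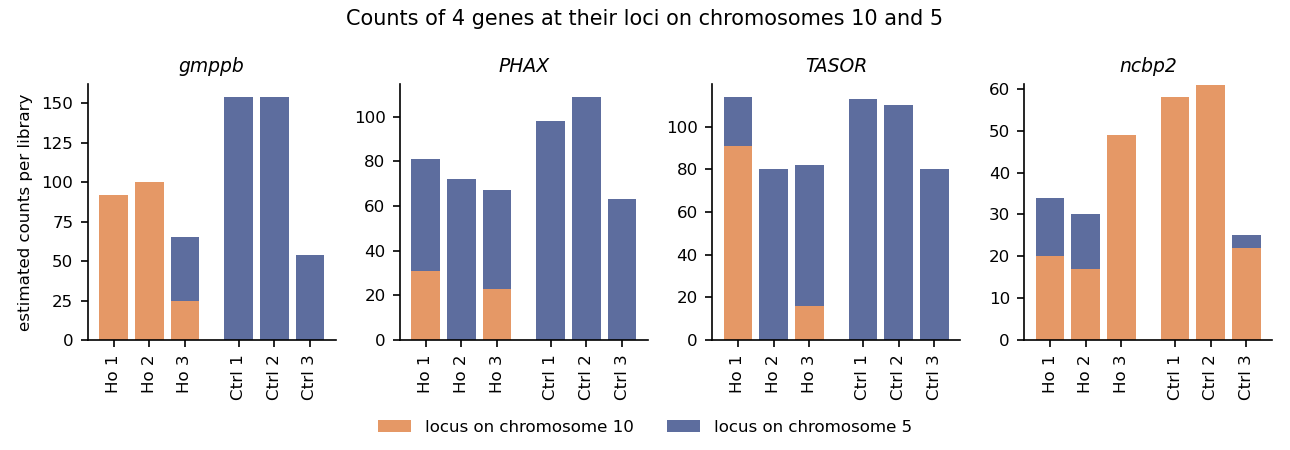
Estimated counts of gmppb, PHAX, TASOR and ncbp2 in each Ho and Ctrl library, stacked by the locus on chromosome 10 (orange) and on chromosome 5 (blue). For gmppb, PHAX and TASOR, the chromosome 10 locus has counts in 2 or 3 Ho fish and in no Ctrl fish. For ncbp2 it has counts in every fish, and the chromosome 5 locus only in Ho 1, Ho 2 and Ctrl 3 (14, 13 and 3 counts). For TASOR the sums of 114, 80 and 82 counts in Ho and 113, 110 and 80 in Ctrl overlap.

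Genes of the cytosolic ribosome stood above Ctrl almost without exception. These proteins form the particle that translates mRNA. Of 87 ribosomal protein genes, all of which could be tested, 85 had a log2 fold change above 0 (48.5% of all genes did) with a median of 0.50. The 3 Ho fish lay above the 3 Ctrl fish in 68 of the 87 and below in 0, where the background is 5.92% and 5.32%. At an unadjusted edgeR p under 0.05 there were 28 higher and 0 lower, and 0 reached an adjusted p under 0.05 with edgeR or DESeq2. Rpl27a had 733, 836 and 775 CPM in Ho and 420.3, 400.2 and 627 CPM in Ctrl (log2 fold change 0.70, standard error 0.24, edgeR adjusted p = 0.732). As the mean log2 CPM of the list, the fish stood at 9.21, 9.29 and 9.11 in Ho, against 8.45, 8.5 and 8.95 in Ctrl. Ctrl 3 was thus close to Ho, and the median of the list was 0.69 without it. Ribosomal protein genes share the scaling of their library, so they are not independent of each other. With library totals the median was 0.32 (0.57 above that of all genes) and 40 genes did not overlap, and with TPM 27 did not. Genes of the list at an unadjusted p under 0.05 numbered 81 without Ctrl 3, 1 without Ho 2, 5 with library totals, 1 with limma on TPM and 74 with DESeq2. Summed TPM of the list was 194825, 222352 and 174293 in Ho, against 166867, 178434 and 155633 in Ctrl, and here the groups overlapped.

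Genes that build ribosomes or charge tRNAs did not follow as whole lists. Of 93 ribosome assembly genes 34 lay above 0 (median -0.05), with 5 above Ctrl without overlap and 3 below. Among them, DESeq2 called Nsa2, an assembly factor of the large subunit, higher at an adjusted p of 0.0141, with 215, 227 and 237 CPM in Ho and 96.4, 112 and 151 CPM in Ctrl. The nucleolar helicase DDX21 was called higher as well (248, 277 and 301 CPM in Ho, against 136, 169.9 and 181 in Ctrl, adjusted p = 0.0354). Both calls were lost when some 1 fish was left out (highest DESeq2 adjusted p 0.299 and 0.394). Cytosolic aminoacyl-tRNA synthetases, which load tRNAs with amino acids, had a median of 0.10 over 27 genes. GARS1, the enzyme for glycine, rose by DESeq2 (119, 108 and 93.6 CPM in Ho, against 61.2, 65.9 and 72.4 in Ctrl, adjusted p = 0.04) at its main locus only. The sum of the 2 GARS1 loci was 124, 130 and 95.5 CPM in Ho, against 74.3, 95.3 and 74.1 in Ctrl (DESeq2 adjusted p = 0.428), and leaving out 1 fish also ended the call (highest 0.487). The 43 mitochondrial ribosomal proteins annotated to the same pathway had a median of -0.04, and 0 of them lay above Ctrl without overlap. The pathway named Ribosome, 134 genes, had the highest median of all 313 KEGG pathways described (0.46), and 87 of its genes are those of the list.

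Immediate early genes, transcribed within minutes of a stimulus, gave the highest median of the 30 lists (0.69). Of 61 tested, 56 lay above 0, 15 were higher and 0 lower at an unadjusted edgeR p under 0.05 (background 3.59% and 2.91%), and 15 lay above Ctrl without overlap. DESeq2 called 2 of them, DUSP5 and Nr4a2. FOSL2, a partner in the AP-1 transcription factor, had 23.1, 37.9 and 18.9 CPM in Ho and 9.29, 2.78 and 7.58 CPM in Ctrl. Its groups were separate, with a log2 fold change of 2.03 (standard error 0.59, edgeR adjusted p = 0.702, DESeq2 adjusted p = 0.0711). Dusp4, another ERK phosphatase, had 7.67, 9.48 and 0.739 CPM in Ho, against 0.622, 0.538 and 1.04 in Ctrl, so Ho 3 sat among the Ctrl fish. Outside the list, PLK3, a kinase of the stress response, was called by DESeq2 (19.7, 40.6 and 12.6 CPM in Ho, against 7.91, 3.63 and 7.87 in Ctrl, adjusted p = 0.0365), a call lost without Ho 1, Ho 2, Ctrl 1 or Ctrl 2 (DESeq2 adjusted p 0.119 to 0.455). Its log2 fold change of 1.91 was 1.33 without Ho 2. Also outside the list, ier5l, related to the immediate early response gene IER5, went the other way and was called lower by DESeq2, as given above. The mean log2 CPM of the list was 3.91, 4.21 and 3.35 in Ho and 3.27, 2.66 and 3.15 in Ctrl. Ho 3 was close to Ctrl 1 on that scale. Without Ho 2 the median was 0.49, with 4 genes at an unadjusted p under 0.05 in place of 15, and with library totals it was 0.48, with 10. CCN1, a secreted matrix protein in the list of muscle mechanical stress, had 149, 124 and 64.6 CPM in Ho, against 37.9, 19.6 and 47.5 in Ctrl (log2 fold change 1.69, standard error 0.57, DESeq2 adjusted p = 0.195).

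Heat shock genes split by fish. The 5 loci of hsp70, an inducible chaperone, summed to 550.4, 459 and 39.2 CPM in Ho, against 6.65, 19.1 and 35 in Ctrl. Ho 1 and Ho 2 were far above all others, whereas Ho 3 and Ctrl 3 were alike (log2 fold change 4.11, standard error 1.26, edgeR adjusted p = 0.727, DESeq2 adjusted p = 0.0894). The wider list of unfolded protein and heat shock genes had a median of -0.09 over 63 genes, 22 of them above 0. Circadian clock genes had a median of 0.32 over 50, with 6 above Ctrl without overlap and 1 below, and at an unadjusted edgeR p under 0.05 there were 2 higher and 2 lower (4.0% each). By mean log2 CPM the clock list stood at 3.17, 3.23 and 3.13 in Ho, against 2.64, 2.55 and 3.01 in Ctrl. Summed TPM of the list overlapped, at 389.8, 398 and 274 in Ho and 285, 308 and 304 in Ctrl, and the median was 0.11 without Ctrl 1.

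**Figure D3:**
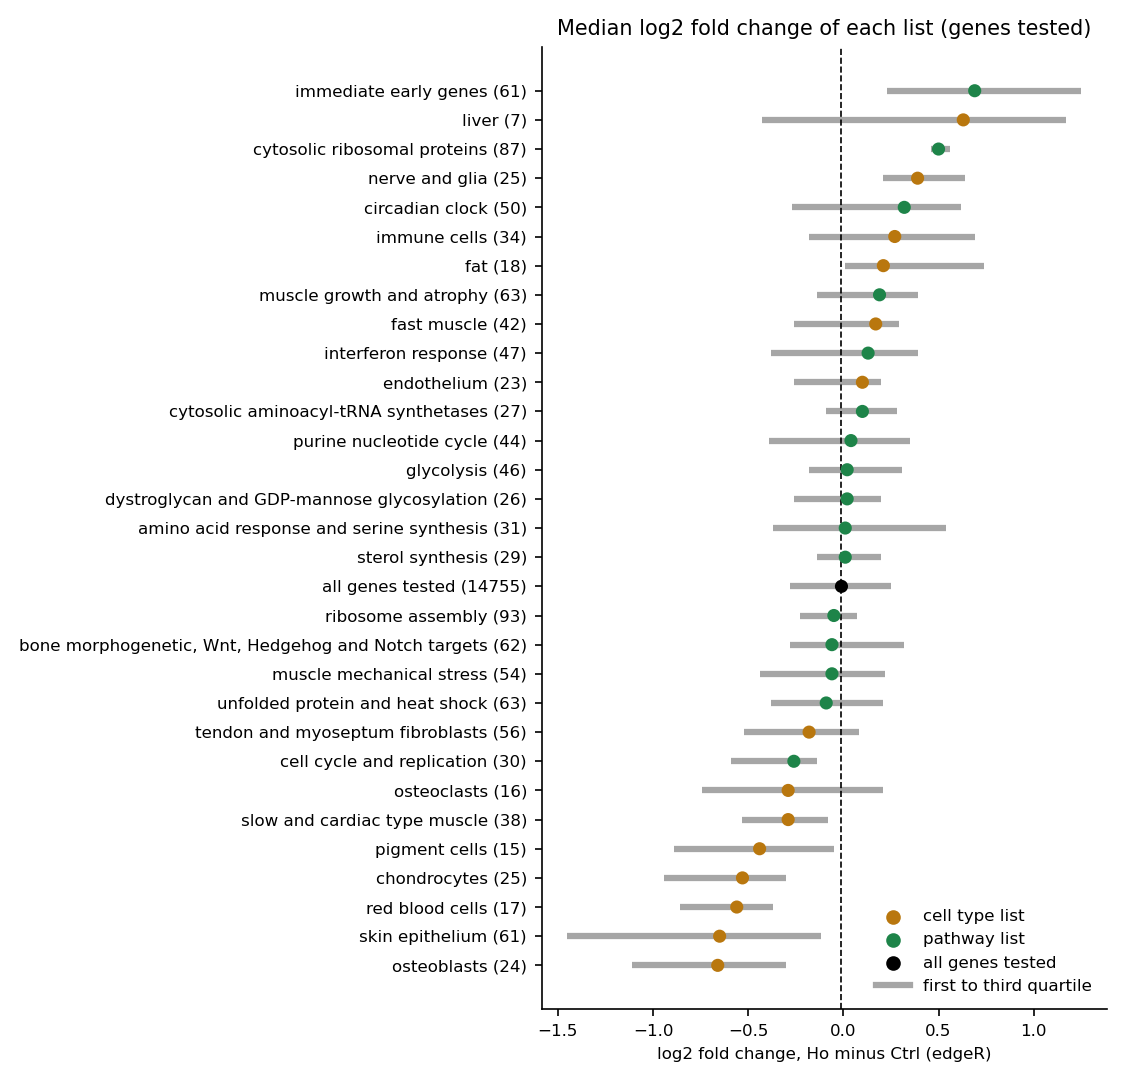
Median log2 fold change of Ho minus Ctrl (edgeR) for 30 lists and all tested genes, with grey bars from the first to the third quartile and the number of tested genes in brackets. Immediate early genes (0.69) and cytosolic ribosomal proteins (0.50) lie at the upper end with the 7 liver genes (0.63), and osteoblast (-0.66) and skin markers (-0.65) at the lower end.

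None of the 10 most abundant genes, nearly all of them genes of the muscle fibre, passed a test or kept the groups apart. acta1 had 73568, 68922 and 77061 CPM in Ho, against 50632, 44039 and 87739.9 in Ctrl, and Ctrl 3 was the highest of the 6 fish (log2 fold change 0.27, standard error 0.31, edgeR adjusted p = 0.927). The abundant MYH1s locus ABG768_023107 had a log2 fold change of 0.27 (standard error 0.51), which was -0.13 without Ctrl 2 and 1.21 without Ctrl 3. Fast muscle markers had a median of 0.17 over 42 genes (-0.08 with limma on TPM), and slow and cardiac type markers -0.29 over 38, of which 8 lay above 0, 0 were above Ctrl without overlap and 4 below. Without Ctrl 1 the slow list had a median of -0.12. MYBPC1, a slow-fibre myosin-binding protein, had 89.5, 48.9 and 94 CPM in Ho, against 119, 112 and 103 in Ctrl (log2 fold change -0.52, standard error 0.28, edgeR adjusted p = 0.807). Among 63 genes of muscle growth and atrophy the median was 0.19. RPS6KB1, the S6 kinase that mTOR activates, had 12, 13.8 and 8.73 CPM in Ho and 7.29, 7.13 and 8.39 CPM in Ctrl without overlap. fsta, the myostatin antagonist follistatin, showed the same order at 1.61, 2.47 and 2.15 CPM in Ho and 0.756, 1.43 and 1.26 CPM in Ctrl. DESeq2 called neither (adjusted p = 0.47 and 0.669), and both separations hold for the single locus only. Over the 2 loci of each symbol the sums overlapped, with 61.2, 53.5 and 60.4 CPM in Ho and 36.5, 31.8 and 61.7 CPM in Ctrl for RPS6KB1 and 4.46, 5.35 and 3.22 CPM in Ho and 3.37, 4.1 and 2.37 CPM in Ctrl for fsta. In RNA of whole tissue, fewer cells of a type and less RNA per cell cannot be told apart, which holds for every cell type list here.

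Skeletal cell lists had medians below 0, and none of their members passed edgeR after adjustment. Osteoblast markers had a median of -0.66 over 24 genes, 5 of them above 0, with 0 above Ctrl without overlap and 1 below (4.17%, against 5.32% of all genes). At an unadjusted edgeR p under 0.05 there were 0 higher and 3 lower (12.5%, against 2.91% of all genes). As mean log2 CPM they stood at 3.38, 2.78 and 2.99 in Ho, against 3.38, 4.32 and 3.10 in Ctrl. Ctrl 2 alone was well above the rest, and without it the median was -0.11. The homeobox factor dlx5a, which acts in osteoblast differentiation, had 0.268, 0.172 and 0.672 CPM in Ho and 1.02, 1.93 and 0.594 CPM in Ctrl, with overlap. The fibrillar collagen Col5a2 (ABG768_023658) had 8.69, 2.87 and 3.96 CPM in Ho, against 17.8, 41.4 and 6.76 in Ctrl (log2 fold change -2.09, standard error 0.81, DESeq2 adjusted p = 0.319). The 3 Col5a2 loci together had 199, 176 and 131 CPM in Ho, against 203, 335 and 133 in Ctrl, with a log2 fold change of -0.41. Osteocalcin, counted at 1 bglap locus, ranged from 59 to 864 counts in Ho and from 503 to 1231 in Ctrl. Chondrocyte markers had a median of -0.53 (-0.31 without Ho 2), with 2 of 25 above 0. col27a1a, a collagen of growing cartilage, had 1.82, 0.919 and 2.08 CPM in Ho, against 2.53, 5.87 and 2.38 in Ctrl, and was the only 1 of the list without overlap.

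Osteoclast markers were mixed (median -0.29 over 16, and 0.00 without Ctrl 2), and their called genes do not mark osteoclasts alone. The collagenase locus MMP13 (ABG768_002890), whose closest fish protein is matrix metallopeptidase 30, had 1.02, 5.34 and 0.806 CPM in Ho and 0.0444, 0.0448 and 0.371 CPM in Ctrl, and DESeq2 called it higher at an adjusted p of 0.0185, but not the sum of 8 MMP13 loci (DESeq2 adjusted p = 0.807). Tnfrsf11b, the decoy receptor osteoprotegerin that osteoblasts release to restrain osteoclasts, had 12.5, 15.5 and 1.21 CPM in Ho, against 1.38, 0.314 and 0.446 in Ctrl. Ho 3 lay below Ctrl 1, and DESeq2 called the gene higher at an adjusted p of 0.0365. Leaving out 1 fish ended both calls (highest DESeq2 adjusted p 0.51 for MMP13 and 0.441 for Tnfrsf11b). ITGB3, an integrin of osteoclasts and platelets, had 0.161, 2.07 and 0.94 CPM in Ho, against 10.6, 8.56 and 1.04 in Ctrl, with a log2 fold change of -2.68 (standard error 0.91, DESeq2 adjusted p = 0.172). Tendon and myoseptum markers had a median of -0.18 over 56 genes, 16 of them above 0, which was 0.04 without Ctrl 2. Within this list, the mesenchymal factor TWIST2 and the tendon factor MKX parted in direction. TWIST2 had 3.92, 2.93 and 3.16 CPM in Ho and 1.33, 1.21 and 1.19 CPM in Ctrl (log2 fold change 1.42, standard error 0.33, DESeq2 adjusted p = 0.0632). MKX had 1.02, 0.919 and 0.873 CPM in Ho and 2.44, 1.57 and 1.63 CPM in Ctrl (log2 fold change -1.0, standard error 0.42, DESeq2 adjusted p = 0.694). Both lacked overlap. Summed over the 2 loci of each symbol, the log2 fold changes were 0.71 for TWIST2 and -0.71 for MKX, and the MKX sums overlapped.

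Markers of skin and blood, which can be carried along in a dissection, varied as much within Ctrl as between the groups. Skin epithelium markers had a median of -0.65 over 61 tested genes of 83 loci, 13 of them above 0, with 0 above Ctrl without overlap and 1 below (1.64%, against 5.32% of all genes). At an unadjusted edgeR p under 0.05 there were 0 higher and 4 lower (6.56%, against 2.91% of all genes). Their summed TPM was 636, 1596 and 513 in Ho, against 3858, 1986 and 430.3 in Ctrl. Ctrl 3 had the least of all 6 fish, and the median was -0.06 without Ctrl 1 and -1.42 without Ho 2. TP63, a factor of basal keratinocytes, had 92, 112 and 169 counts in Ho and 936, 393 and 109 in Ctrl. Red blood cell markers had a median of -0.56 over 17 genes, with summed TPM of 1410, 4313 and 849 in Ho, against 6501, 5103 and 762 in Ctrl. That median was -0.22 without Ctrl 1 and -1.21 without Ho 2. The loci at 0 in all fish of a group were 8 in Ho and 9 in Ctrl for skin, and 1 in Ho and 1 in Ctrl for red blood cells. The low skin, blood and TMM values of Ctrl 3 go with its high share of abundant muscle genes, and their part in the ribosomal and osteoblast results was not tested. Nerve and glia markers had 25 of 25 genes above 0 (median 0.39), although only egr2b lay above Ctrl without overlap and Ho 2 was low (mean log2 CPM 3.93, 2.94 and 3.63 in Ho, against 2.81, 3.13 and 3.52 in Ctrl). Without Ho 1 that median was 0.06. Over the 2 egr2b loci the sums overlapped, at 6.13, 6.5 and 5.24 CPM in Ho and 5.32, 3.33 and 4.59 CPM in Ctrl (log2 fold change 0.43).

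**Figure D4:**
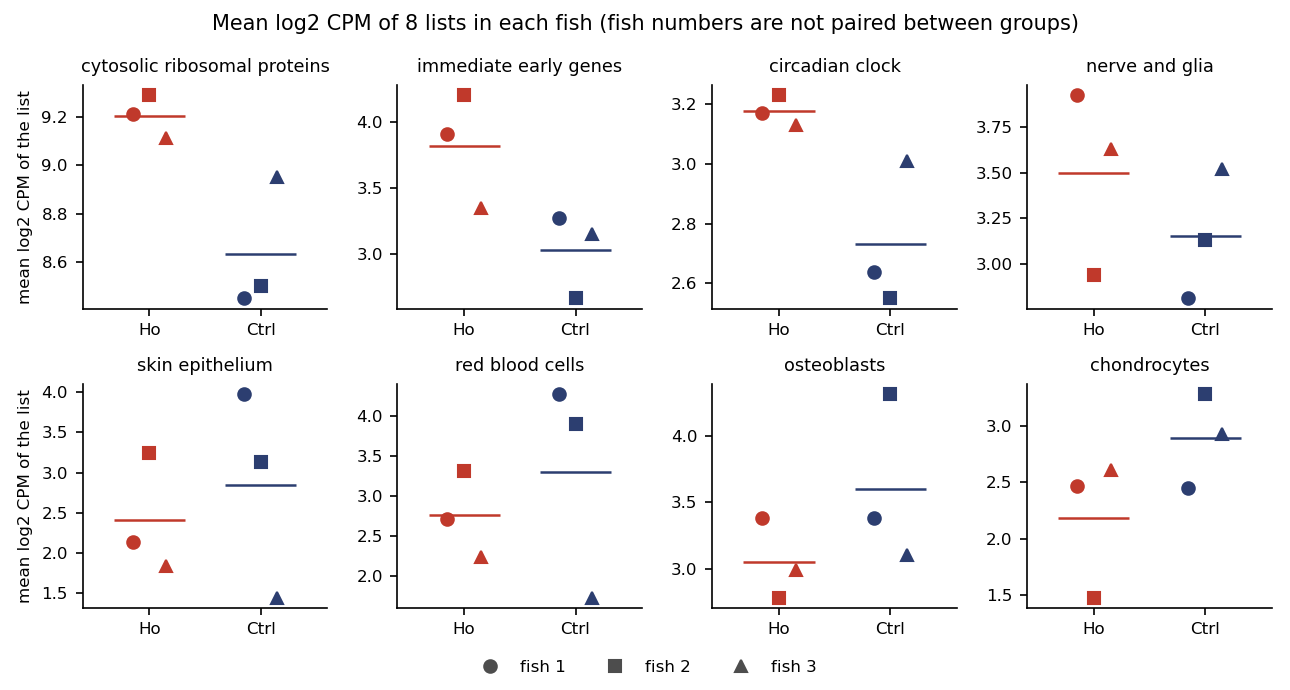
Mean log2 CPM of 8 lists in each fish, Ho on the left and Ctrl on the right, with symbols for the fish number and a line at the group mean. Ribosomal, immediate early and circadian lists have every Ho fish above every Ctrl fish, whereas skin, red blood cell, osteoblast, chondrocyte and nerve lists overlap, and Ctrl 3 is lowest for skin (1.44) and red blood cells (1.73).

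Fat markers had a median of 0.21 over 18 genes, with 3 higher (16.7%) and 0 lower at an unadjusted edgeR p under 0.05. LPL (ABG768_002032), the lipase that takes fatty acids from lipoproteins, had 5.58, 7.81 and 4.3 CPM in Ho and 2.31, 2.47 and 2.6 CPM in Ctrl (log2 fold change 1.26, standard error 0.35, DESeq2 adjusted p = 0.169). The sum of the 3 LPL loci was 45.2, 55 and 32 CPM in Ho, against 29.2, 20.3 and 35.9 in Ctrl, with overlap and a log2 fold change of 0.63. The desaturase SCD had 131, 448 and 97.9 CPM in Ho, against 113, 62.4 and 72.8 in Ctrl, where the log2 fold change of 1.45 became 0.48 once Ho 2 was left out. Immune cell markers had a median of 0.27 over 34 of 166 loci and -0.13 without Ho 2, with 5 higher (14.7%) and 0 lower at an unadjusted p under 0.05 and 5 above Ctrl without overlap. Endothelium markers had a median of 0.10 over 23 genes, with 0 higher and 3 lower (13.0%, against 2.91% of all genes) at an unadjusted p under 0.05. The scavenger receptor MARCO had 12.6 CPM in Ho 2, against 0.536 and 0.739 in Ho 1 and Ho 3 and 0.0743 to 0.359 in Ctrl. Ho 2 stood alone in several other genes. LRP2, the endocytic receptor megalin, had 0.215, 21.5 and 0.269 CPM in Ho and 0.756, 0.628 and 0.297 CPM in Ctrl. Without Ho 2 the log2 fold change of LRP2 was -1.22. Complement c3 (ABG768_001176) had 0.161, 20.9 and 0.47 CPM in Ho, against 0.0889, 0.403 and 0.223 in Ctrl. In contrast, complement C4b rested on no single fish, at 10.5, 12.2 and 14.1 CPM in Ho and 6.44, 6.63 and 5.2 CPM in Ctrl (log2 fold change 1.00, standard error 0.31, DESeq2 adjusted p = 0.26).

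Over 313 KEGG pathways with 15 to 300 tested genes, medians with TMM scaling ran from -0.29 to 0.46, and 97 lay above 0. Below Ribosome, the highest were Coronavirus disease - COVID-19 (0.46), which shares 91 loci with it, Pantothenate and CoA biosynthesis (0.36), Chemical carcinogenesis - DNA adducts (0.31), Primary immunodeficiency (0.30), Complement and coagulation cascades (0.24), and Steroid hormone biosynthesis and Drug metabolism - cytochrome P450 (0.19 each). In the coenzyme A pathway, dpyd, which starts the breakdown of pyrimidines, had 1.18, 0.919 and 0.739 CPM in Ho, against 0.311, 0.269 and 0.149 in Ctrl (log2 fold change 1.90, standard error 0.57, DESeq2 adjusted p = 0.325). aasdhppt, which attaches phosphopantetheine to carrier proteins, had 9.71, 12.6 and 13.5 CPM in Ho and 3.24, 2.78 and 8.47 CPM in Ctrl. These were the 2 genes without overlap among 18 in the pathway, whose median was -0.03 without Ho 2. Among 446 gene ontology terms, 2 chosen after their values were seen lay near the ends, translation with a median of 0.43 over 147 genes and collagen trimer with -0.31 over 48.

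The lowest medians belonged to ECM-receptor interaction (-0.29 over 83 genes), DNA replication (-0.21 over 34), Mismatch repair (-0.20), Butanoate metabolism (-0.18), Apoptosis - multiple species and Protein digestion and absorption (-0.17 each), African trypanosomiasis (-0.16) and Bladder cancer (-0.15). In ECM-receptor interaction 27 genes lay above 0, 1 was above Ctrl without overlap and 3 below, fewer than the background in each direction, while at an unadjusted edgeR p under 0.05 there were 0 higher and 4 lower (4.82%, against 2.91% of all genes), and the median was -0.03 without Ctrl 2. The basement membrane collagen COL4A2 had 1.72, 2.93 and 1.88 CPM in Ho at 1 locus (ABG768_025385), against 7.42, 6.63 and 1.78 in Ctrl, with overlap. The 3 COL4A2 loci together had 67.8, 43.9 and 55.9 CPM in Ho, against 82.3, 87.8 and 75.8 in Ctrl. These sums did not overlap (log2 fold change -0.55, DESeq2 adjusted p = 0.745). In DNA replication 5 of 34 genes lay below Ctrl without overlap (14.7%) and 1 above. PRIM1, the primase that starts new DNA strands, had 0.161, 0.345 and 0.336 CPM in Ho, against 0.889, 0.896 and 0.446 in Ctrl (log2 fold change -1.42, standard error 0.54, DESeq2 adjusted p = 0.656). In the apoptosis pathway 5 of 33 lay below Ctrl, among them the pore-forming effectors of mitochondrial apoptosis BAX and boka. BAX had 1.18, 1.26 and 1.75 CPM in Ho and 4.04, 4.26 and 1.78 CPM in Ctrl, and boka 0.697, 0.517 and 0.47 CPM in Ho and 4.4, 2.96 and 0.743 CPM in Ctrl. Ctrl 3 was nearest to Ho in both, and DESeq2 called neither (adjusted p = 0.272 and 0.0881). The 4 BAX loci together overlapped, at 5.91, 5.75 and 6.79 CPM in Ho and 9.44, 11 and 5.33 CPM in Ctrl (log2 fold change -0.49).

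Signalling pathways of the skeleton had medians near that of all genes. TGF-beta signaling had a median of -0.08 over 118 genes, Wnt -0.06 over 165, Hedgehog -0.05 over 55, MAPK 0.01 over 294 and FoxO 0.05 over 145. In TGF-beta signaling 7 genes lay above Ctrl without overlap (5.93%, against 5.92% of all genes) and 12 below (10.2%, against 5.32%). At an unadjusted edgeR p under 0.05 the Wnt pathway had 4 genes higher (2.42%) and 12 lower (7.27%, against 2.91% of all genes). FoxO had 10 higher (6.9%, against 3.59% of all genes) and 6 lower (4.14%). A pair of copies of the stress kinase JNK1 differed in direction. mapk8 (ABG768_004133, chromosome 12, 1705027 to 1730235) had 11, 9.65 and 10.3 CPM in Ho, against 5.07, 5.24 and 6.46 in Ctrl. mapk8b (ABG768_005536, chromosome 13, 18846158 to 18862861) had 4.61, 3.73 and 3.02 CPM in Ho, against 6.18, 6.59 and 6.76 in Ctrl. Neither overlapped. The log2 fold changes were 0.89 (standard error 0.18, DESeq2 adjusted p = 0.0236) and -0.78 (standard error 0.20, DESeq2 adjusted p = 0.231). The call at mapk8 was lost without any 1 of the fish other than Ctrl 3 (DESeq2 adjusted p 0.11 to 0.441). The receptor TGFBR1 had 5.1, 4.71 and 5.11 CPM in Ho and 1.87, 3.09 and 3.49 CPM in Ctrl (log2 fold change 0.83, standard error 0.27, DESeq2 adjusted p = 0.401). Its groups did not overlap either.

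Oxidative phosphorylation had a median of -0.05 over 132 genes, with 0 above Ctrl without overlap and 2 below, and Glycolysis / Gluconeogenesis 0.05 over 62. Fatty acid degradation had a median of -0.12 over 48, with 0 above Ctrl without overlap and 4 below (8.33%), and at an unadjusted edgeR p under 0.05 there were 3 higher and 2 lower. The gene ontology term fatty acid beta-oxidation, chosen after its values were seen, had a median of -0.32 over 19 genes, of which 0 were higher and 3 lower (15.8%) at an unadjusted p under 0.05. Acadl, a dehydrogenase of fatty acid oxidation, had 52.8, 19.1 and 42.9 CPM in Ho, against 88.7, 85.7 and 72.4 in Ctrl (log2 fold change -1.10, standard error 0.40, DESeq2 adjusted p = 0.383). The Proteasome had 44 of 52 genes above 0 with a median of 0.16 (-0.06 without Ctrl 2), of which 1 was above Ctrl without overlap and 1 below. In the list of amino acid response and serine synthesis the median was 0.01, and GPT2 was the only call by DESeq2. At ASNS, which makes asparagine, the 2 loci summed to 46.1, 47.4 and 42.5 CPM in Ho, against 67.4, 52 and 38.7 in Ctrl, with overlap and a log2 fold change of -0.22.

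Genes near runx2b were described on their own, because DNA linked to an edited allele is inherited with it. Within 5 Mb, 26 of 161 tested genes did not overlap (16.1%, against 11.2% of all genes), 10 above Ctrl and 16 below. It was 5 of 29 genes (17.2%) within 1 Mb. More than 10 Mb away on the same chromosome it was 42 of 280 genes, 8 above Ctrl and 34 below. The highest share of any chromosome was 15.7%, on chromosome 3, which does not carry runx2b. Chromosome 20 as a whole had 15.5%, close to the share within 5 Mb of runx2b. The splicing factor subunit SF3B6, 4.89 Mb away, had 5.2, 5.11 and 4.43 CPM in Ho, against 10.2, 11.6 and 12.2 in Ctrl (log2 fold change -1.20, standard error 0.27, edgeR adjusted p = 0.64, DESeq2 adjusted p = 0.051). Mark3, a kinase of microtubule-binding proteins that lies 0.038 Mb from runx2b, had 8.05, 8.1 and 9 CPM in Ho, against 5.29, 4.89 and 6.46 in Ctrl. With the other Mark3 locus added, the sums of 19, 18.7 and 20.4 CPM in Ho and 15.6, 15.7 and 21.7 CPM in Ctrl overlapped. GALNT14, which starts O-linked sugar chains, had 3.17, 3.33 and 2.08 CPM in Ho and 1.24, 1.17 and 1.71 CPM in Ctrl (log2 fold change 1.07, standard error 0.32). At an adjusted p under 0.05 DESeq2 called 0 of 286 genes within 10 Mb and 5 of 280 farther along chromosome 20. Over all genes it called 0.427%.

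By chromosome, the share of genes below Ctrl without overlap was highest on chromosomes 20 (10.9%), 5 (10.8%) and 7 (9.04%), where the background is 5.32%. On these 3 of 24 chromosomes, the median of all tested genes, taken per fish relative to the mean of the 9 libraries, was lower in every Ho fish than in every Ctrl fish. On 1 chromosome, 19, it was higher in every Ho fish, by little. There it was 0.04, 0.07 and 0.01 in Ho, against 0.00, 0.01 and 0.00 in Ctrl, with Ho 3 and Ctrl 2 alike after rounding. For chromosome 5 the median was 0.00, -0.02 and 0.01 in Ho, against 0.12, 0.11 and 0.12 in Ctrl, on the log2 scale. For chromosome 20 it was 0.00, -0.05 and -0.05 in Ho, against 0.09, 0.09 and 0.09 in Ctrl. Chromosome 7 gave -0.15, -0.16 and 0.01 in Ho and 0.08, 0.12 and 0.03 in Ctrl, so that Ho 3 nearly met Ctrl 3. On that chromosome 63 genes were lower at an unadjusted edgeR p under 0.05 (8.90%, against 2.91% of all genes). Without 1 fish these numbered 28 (without Ho 1 or Ctrl 2) to 106 (without Ho 3). There were 32 without Ho 2, 35 without Ctrl 1 and 93 without Ctrl 3. The share of all genes that were lower moved too, to 1.53% without Ctrl 1 and 6.18% without Ctrl 3. Chromosome 7 had 4.94% and 13.1% in these fits. Its share was above that of all genes whichever fish was left out, with 4.52% against 2.92% without Ho 2. Loci assembled from the reads, which have no position, stood above the rest, with 110 of 824 above Ctrl without overlap (13.3%) and a median of 0.24. Taken per fish as above, their median was 0.00, 0.15 and 0.13 in Ho, against -0.36, -0.15 and 0.02 in Ctrl. Here the groups overlapped, with Ctrl 3 above Ho 1. Assembled loci held 20 of the 63 genes that DESeq2 called at an adjusted p under 0.05. They made up 824 of the 14755 genes tested, of which DESeq2 called 0.427% in all.

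**Figure D5:**
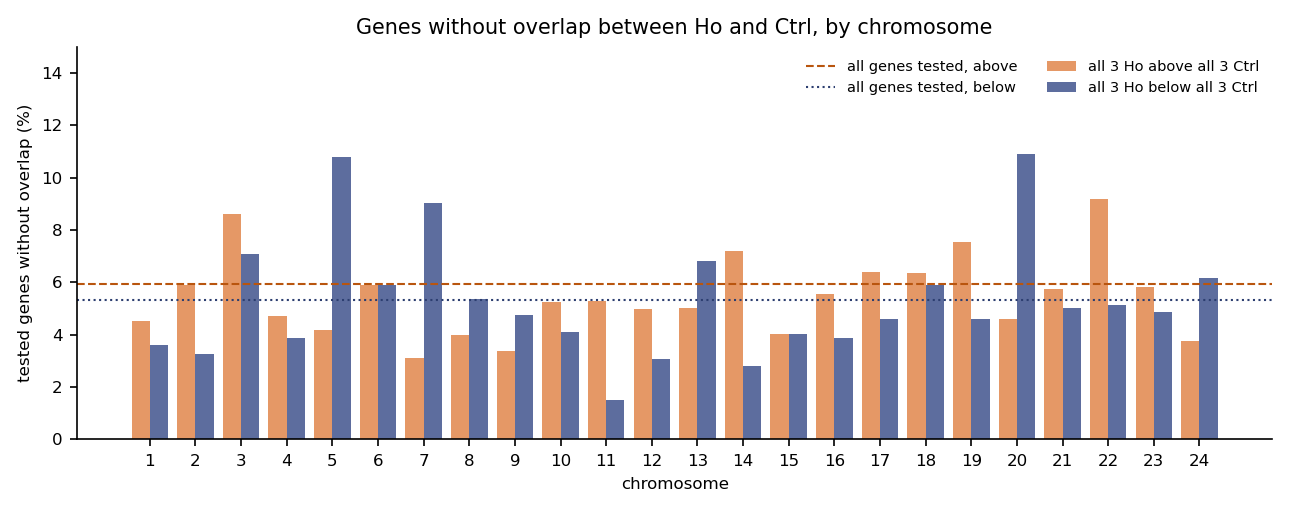
Share of tested genes on each of the 24 chromosomes for which all 3 Ho fish lie above (orange) or below (blue) all 3 Ctrl fish, with lines at the shares over all genes (5.92% and 5.32%). Chromosomes 20, 5 and 7 have the highest blue bars (10.9%, 10.8% and 9.04%), and chromosome 22 the highest orange bar (9.20%).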

How the data were processed

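RNA of the 9 fish was poly(A)-selected and sequenced as paired-end Illumina libraries. As the methods describe, reads were trimmed of adaptors, filtered for quality and mapped to the genome of this species, and the authors deposited an estimated count per locus, not scaled to library size, and TPM per locus, scaled so that each library sums alike. The aligner, the counter and the test for differential expression are not given in the sources used here. FPKM values and the authors' group means were not used. Gene names are the Swiss-Prot best hits in the deposited annotation, and positions were matched by locus tag.

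Estimated counts were rounded and filtered by filterByExpr, scaled by TMM and tested by the robust quasi-likelihood method of edgeR 4.0.16 over all 9 libraries in R 4.3.3, contrast Ho minus Ctrl, with Benjamini-Hochberg adjustment over all genes. The standard error of a log2 fold change is its size over the root of the F statistic. DESeq2 1.42.0 at its default settings and limma 3.58.1 (limma-trend on log2 of the deposited TPM plus 1) were run beside it. Logarithms of CPM had a prior count of 2. Lists and pathways were described by counts and medians, with no set test. A fold against a group at 0 is a limit that takes 3 counts for the whole group, for counting error alone. The scripts were tested on simulated data. Tables and figures used Python 3.11.15 with pandas 2.3.3 and matplotlib 3.10.9.

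The genes named are runx2b, in each direction the 15 with the smallest p among those without overlap, a log2 fold change of at least 1 in size and at least 1 CPM in the higher group, DESeq2 DEGs, up to 4 members of each list or pathway with the smallest p, the 10 most abundant genes, and 8 genes without overlap within 5 Mb of runx2b. Marker genes outside this rule (tnmd, sp7, bglap, Srf, TASOR, ncbp2, PHAX) were chosen after their values were seen. Some genes that the rule names are not reported here. The comparison, the lists and the tests were chosen with earlier results of these data known. Same-numbered Ho and Ctrl fish deviated together with correlations of -0.105, 0.188 and 0.259, so the numbers were not taken as pairs. Replicates are separate fish. Alternatives were other scalings and filters, only the 6 libraries compared, a replicate block, DESeq2, limma on TPM and each fish left out in turn.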

Additional observations from a re-analysis of the deposited data

How the results depend on the processing

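The edgeR count of 0 DEGs held under other scalings and filters, with only the 6 libraries compared and with the replicate number as a block. It was 21 with DESeq2 and 0 to 1 with 1 fish left out, the 1 without Ctrl 3. With the replicate block edgeR gave 879 genes at an unadjusted p under 0.05 (959 without it), and the block, which pairs fish that share only a number, changed no call by edgeR. DESeq2 called 25 DEGs under the block, 16 of them among the 21. The DESeq2 count of 21 became 62 with only the 6 libraries, 63 at an adjusted p under 0.05 with no fold minimum, and 6 to 219 with 1 fish left out, where 6 was without Ctrl 2, 7 without Ctrl 1, 8 without Ho 2, 53 without Ho 3 and 219 without Ctrl 3. Of the 21, 4 were called whichever fish was left out (Gimap9, Myh4 and 2 loci with no name). Genes at an unadjusted p under 0.05 numbered 563 to 2120 with 1 fish left out, lowest without Ctrl 1 (563) and Ctrl 2 (589) and highest without Ctrl 3. Leaving out a fish makes non-overlap easier, and these alternatives were added after seeing the data: 2545 to 4828 genes did not overlap, and 33 to 64 near runx2b. Near runx2b the count was 5 within 1 Mb, 10 within 2 Mb and 46 within 10 Mb. Ribosomal protein genes above Ctrl without overlap numbered 27 with TPM, 40 with library totals and 68 to 84 with 1 fish left out, and immediate early genes 8, 7 and 15 to 36. Non-overlapping genes were higher in Ho in 52.7% with TMM, 27.9% with library totals and 17.1% with TPM. Of 117 genes followed, 3 changed direction when 1 fish was left out: runx2b (0.35 without Ctrl 2, range -1.43 to 0.35), MYH1s ABG768_023107 (-0.13 without Ctrl 2, range -0.13 to 1.21) and LRP2 (-1.22 without Ho 2, range -1.22 to 4.22). At an adjusted p under 0.05 edgeR called 8 genes with only the 6 libraries, 7 of them without a symbol, and 7 without Ctrl 3. List medians moved by more than the spread in 37 of 420 comparisons, 12 with library totals and 13 with limma on TPM. For the 41 pathways followed, medians moved in 65 of 574 comparisons, 29 with library totals and 28 with limma on TPM. Most pathway medians thus shifted with library totals and with limma on TPM. These counts take each median as it stands, and the median of all genes shifted too (-0.24 and -0.2, against -0.01 with TMM). Relative to it, ribosomal proteins stood at 0.51 with TMM, 0.57 with library totals and 0.41 with limma on TPM. Osteoblast markers stood at -0.64, -0.75 and -0.38 in the same order. Depth limited the test of runx2b, which had 0 to 27 counts per fish.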
